A study of Mus musculus with 6 samples.

Results

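The genes described here are the Wnt ligands, their Frizzled receptors and a set of core pathway genes, in hippocampal cells cultured from wild type (WT) mice and from *Fmr1* knockout (KO) mice. They are every gene whose symbol starts with Wnt or Fzd and a digit, together with Lrp5, Lrp6, Ctnnb1, Axin1, Axin2, Apc, Lef1, Tcf7, Tcf7l1, Tcf7l2, Dkk3, Sfrp1 and Sfrp2. This gave 42 genes among 47086 loci, namely 19 ligands, 10 receptors, 2 coreceptors, 3 destruction complex genes, beta-catenin, 4 transcription factors and 3 genes of secreted inhibitor families. RNA was taken after 14 days in vitro from 3 WT and 3 *Fmr1* KO libraries, both genotypes on a C57BL/6 background and with no treatment listed; the study describes its hippocampal neurons as coming from newborn pups. *Fmr1* encodes FMRP, the RNA-binding protein lost in fragile X syndrome. For its mice in general the study gives male KO animals and WT littermates from heterozygous mothers, but the litter, batch and pup sex behind each library were not found in the sources used here. As the labels do not say which libraries came from separate cultures, the p-values measure the spread between these libraries, which may be technical.

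Wnt proteins are secreted, lipid-modified ligands that bind Frizzled receptors on the cell surface. In the canonical branch, a Frizzled and the coreceptor LRP5 or LRP6 are engaged together, the destruction complex built on Axin and APC stops marking beta-catenin for breakdown, and beta-catenin enters the nucleus to act with TCF/LEF factors. In the hippocampus the pathway is known for patterning the early tissue, for the growth of dendrites and synapses, and for neurogenesis in the dentate gyrus. Beta-catenin also serves at cell junctions with cadherins, and its protein level is set largely by degradation, which a transcript measurement does not show.

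Levels are FPKM, fragment numbers scaled by transcript length and by library size, as deposited for each library, so that they can be compared between genes. The number of reads behind an FPKM is unknown, so no counting error is given, and the spread between libraries sets the precision. Genotypes were compared as log2(FPKM + 0.1) with limma for the 13195 loci with a mean of at least 1 FPKM in either genotype, with Benjamini-Hochberg adjustment over all of them; the log2 difference understates the change of weakly expressed genes. Of the 42 genes, 23 passed this minimum and 19 did not. The deposited loci of Wnt7b, Fzd3, Lrp5, Ctnnb1, Apc, Axin1, Tcf7l1, Tcf7l2, Wnt6, Wnt10a, Wnt11 and Fzd6 also cover other gene models, mostly predicted ones, and that of Wnt5b also covers the gene Fbxl14, so that their reads may be included. Throughout, the 3 values of a genotype are given in the order of replicates 1, 2 and 3.

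In the libraries as a whole, FPKM summed to between 1803680 and 2303080, of which the noncoding RNA Bc1 took 73.7 to 80.6%. The *Fmr1* transcript was at 19.0, 19.5 and 19.7 FPKM in WT against 23.1, 21.8 and 18.5 in *Fmr1* KO, so that its level did not check the genotype labels. The cultures are labelled as hippocampal neurons. Markers of excitatory neurons summed to 1030 to 1133 FPKM per library, and the astrocyte marker Gfap alone reached 542 to 675 FPKM, so that both cell types contributed RNA. The 9 astrocyte markers summed to 1735 to 2042 FPKM in WT against 1794 to 1991 in *Fmr1* KO, with 4 above 0 and 5 below in log2 difference. At an unadjusted p below 0.05 in limma, 0 were higher, beside 6.99% of all loci, and 2 were lower, S100b and Gja1, beside 7.77%. Markers of the oligodendrocyte lineage summed to 372 to 433 FPKM in WT against 416 to 465 in *Fmr1* KO, with 5 of 8 tested genes above 0 and 3 below in log2 difference. Those of inhibitory neurons summed to 352 to 370 and 329 to 378 FPKM, with 4 of 9 tested genes above 0 and 5 below. In a bulk sample, fewer cells of a type and less RNA per cell cannot be told apart. Of 10 microglial markers, 4 passed the minimum. All 4 were lower in *Fmr1* KO with a p under 0.05 before adjustment in limma, beside 7.77% of all loci, and 0 passed an adjusted p of 0.05. The whole list summed to 16.1 to 18.5 FPKM in WT against 8.12 to 11.7 in *Fmr1* KO, with Aif1 listed at 0 in all libraries. The choroid plexus marker Ttr was at most 0.0910 FPKM in WT against 52.0 to 60.7 in *Fmr1* KO. Its list of choroid plexus and ependyma markers summed to 3.48 to 4.16 and 55.8 to 66.6 FPKM, in *Fmr1* KO mostly through Ttr itself. Of the same list, Folr1, Clic6, Kcnj13, Aqp1 and Otx2 also had higher means in *Fmr1* KO. Foxj1, Ccdc153 and Tmem212 had lower means there, and Kl was listed at 0. Markers of fibroblasts and mural cells summed to 48.8 to 53.7 FPKM in WT against 39.7 to 47.9 in *Fmr1* KO, mostly through Dcn, with means of 42.0 and 34.8, while Col1a1, Col1a2, Col3a1 and Rgs5 of the same list had higher means in *Fmr1* KO. Endothelial markers, with Cldn5 listed at 0, summed to 10.7 to 12.4 and 8.21 to 10.3 FPKM. The part of these differences in the values below was not tested.

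Over the 23 genes tested, none was past an adjusted p of 0.05 in limma, where 0.0909% of all 13195 loci were called higher and 0.174% lower in *Fmr1* KO. Before adjustment, 2 were higher at a p below 0.05, Ctnnb1 and Apc, beside 6.99% of all loci, and 1 was lower, Dkk3, beside 7.77%. The genotypes did not overlap with *Fmr1* KO above for 4 of the 23, Ctnnb1, Apc, Wnt7b and Fzd2, beside 10.8% of all loci, and with *Fmr1* KO below for Dkk3, beside 10.3%. The counts at an unadjusted p were near the background of all loci, and among 23 genes none of these counts is read as particular to the pathway. Of the 23, 13 had a log2 difference above 0 and 10 below, with a median of 0.02, against 0.005 for all tested loci.

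**Figure D1:**
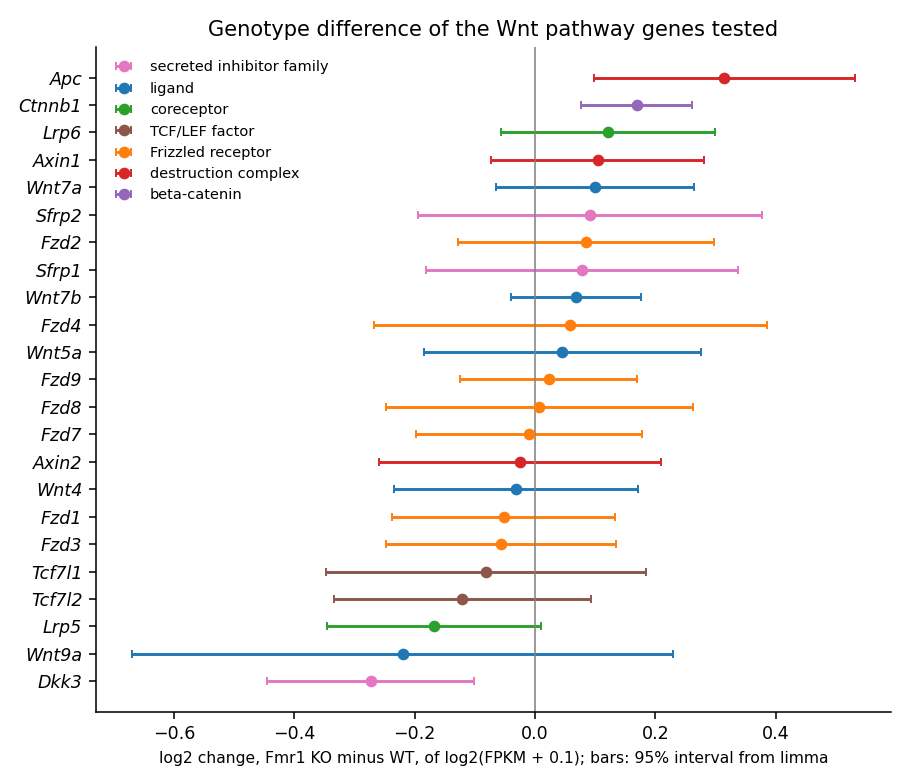
Log2 difference of the 23 genes tested (horizontal axis, *Fmr1* KO minus WT, of log2(FPKM + 0.1)) with the 95% interval from limma as a bar, coloured by role. The intervals of Apc, Ctnnb1 and Dkk3 leave out 0 before adjustment, those of the other 20 genes include it, and the ligands and receptors cluster between -0.22 and 0.10.

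The ligand transcripts were dominated by Wnt7b and Wnt7a, closely related ligands known for roles in dendrite growth, synapse formation and brain vessel growth. Wnt7b (GRCm38, as for all gene positions here, chromosome 15, 85535437 to 85582473 on the minus strand) was at 30.3, 30.9 and 32.3 FPKM in WT against 33.0, 32.7 and 32.3 in *Fmr1* KO. Wnt7a (chromosome 6, 91363981 to 91411363 on the minus strand) was at 10.0, 10.9 and 10.5 FPKM in WT against 10.3, 12.1 and 11.3 in *Fmr1* KO. The 2 genes together made up 72.7% ± 0.868 of the summed ligand FPKM in WT against 74.3% ± 1.12 in *Fmr1* KO (SD, n = 3). Wnt7b alone accounted for 54.4% ± 1.26 and 55.3% ± 0.317, and the ratio of Wnt7b to Wnt7a was 2.98 ± 0.135 in WT against 2.92 ± 0.243 in *Fmr1* KO (SD, n = 3), a difference within the spread of the libraries.

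Below this pair came Wnt5a, Wnt4 and Wnt9a. Wnt5a, a ligand mostly studied for signaling independent of beta-catenin, was at 4.91, 6.36 and 5.87 FPKM in WT against 6.09, 5.56 and 5.97 in *Fmr1* KO. Wnt4, known above all from kidney and gonad development, was at 5.10, 4.39 and 4.72 FPKM in WT against 4.97, 4.37 and 4.54 in *Fmr1* KO. In the order of levels, Wnt7b was above Wnt7a and Wnt7a above Wnt5a in every library with no overlap of their ranges. Wnt5a and Wnt4 were in this order in 5 of 6 libraries, and their ranges overlapped. Wnt9a was the last ligand past the minimum, at 1.41, 1.25 and 1.79 FPKM in WT against 1.504, 1.04 and 1.23 in *Fmr1* KO, 3.41-fold under Wnt4 by the mean of all libraries.

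**Figure D2:**
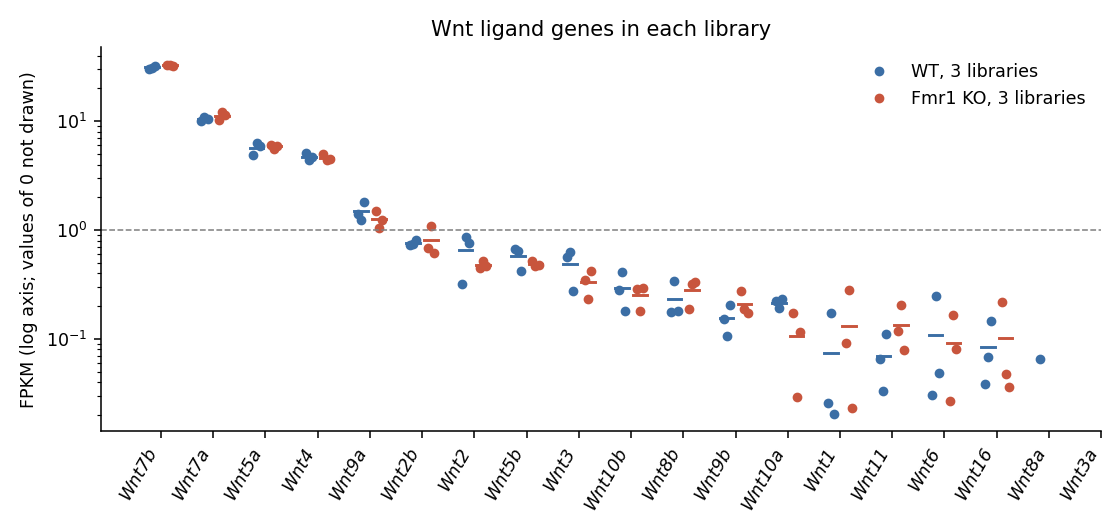
FPKM of the 19 Wnt ligand genes (log axis, genes in falling order of their mean) in each WT (blue) and *Fmr1* KO (red) library, with the mean of each genotype as a bar where no library is at 0; the dashed line marks 1 FPKM. Wnt7b and Wnt7a stand at the top at 30.3 to 33.0 and 10.0 to 12.1 FPKM, and 14 ligands lie below the minimum, with a highest single value of 1.10.

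The other 14 ligands, Wnt1, Wnt2, Wnt2b, Wnt3, Wnt3a, Wnt5b, Wnt6, Wnt8a, Wnt8b, Wnt9b, Wnt10a, Wnt10b, Wnt11 and Wnt16, had a mean below 1 FPKM in both genotypes and were not tested with limma. The highest of them were Wnt2b and Wnt2. Wnt2b, a ligand of the embryonic cortical hem, was at 0.725, 0.752 and 0.815 FPKM in WT against 0.689, 1.10 and 0.622 in *Fmr1* KO (exact permutation p = 1, two-sided, where 0.1 is the smallest p that 3 against 3 allow). Wnt2 was at 0.321, 0.870 and 0.766 FPKM in WT against 0.447, 0.525 and 0.467 in *Fmr1* KO (exact permutation p = 0.4), so that the WT libraries lay on both sides of the KO libraries. Wnt3a, the ligand most often added to cultured cells to switch on the canonical branch, was listed at 0 in all 6 libraries, and Wnt8a was at 0.0652 FPKM in WT replicate 2 and listed at 0 in the other 5. Of the 14, Wnt10a was the only one whose genotypes did not overlap, at 0.225, 0.193 and 0.231 FPKM in WT against 0.172, 0.0293 and 0.116 in *Fmr1* KO (exact permutation p = 0.1); it was singled out after its values were seen, and these levels are near the bottom of the measured range.

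None of the 5 ligands past the minimum differed between the genotypes at an adjusted p below 0.05, or at an unadjusted p below 0.05. For Wnt7b, the *Fmr1* KO libraries were all above the WT libraries, but the lowest KO value and the highest WT value were both 32.3 FPKM after rounding. Its log2 difference was 0.07 (standard error 0.05, 95% interval -0.04 to 0.18, limma adjusted p = 0.548). For Wnt7a it was 0.10, with an interval of -0.06 to 0.26. Wnt9a had the largest difference, a log2 difference of -0.22, and also the widest interval, from -0.67 to 0.23. With WT replicate 1 left out, the sign of Wnt5a and of Wnt4 turned, from 0.05 to -0.06 and from -0.03 to 0.02, and that of Wnt4 also without *Fmr1* KO replicate 2, so no direction can be read for them.

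Frizzled receptors carry a cysteine-rich domain outside the cell that holds the lipid of the Wnt protein, and pass the signal on to Dishevelled proteins inside. Of the 10, 7 passed the minimum, in the order Fzd3, Fzd9, Fzd1, Fzd7, Fzd2, Fzd8 and Fzd4. Fzd3, a receptor of planar polarity signaling that is required for axon tracts, was at 15.2, 19.2 and 18.0 FPKM in WT against 16.5, 16.4 and 17.2 in *Fmr1* KO. Fzd9, known for its expression in the hippocampus, was at 11.2, 10.0 and 11.1 FPKM in WT against 10.7, 11.2 and 10.9 in *Fmr1* KO. These were the only receptors above 10 FPKM in every library, and together they made up 62.0% ± 0.635 of the summed Frizzled FPKM in WT against 61.4% ± 0.649 in *Fmr1* KO (SD, n = 3).

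Fzd1 was at 5.35 to 6.44 FPKM over all libraries, Fzd7 at 3.69 to 4.08, Fzd8 at 2.16 to 2.53 and Fzd4 at 1.55 to 2.06. Fzd1, Fzd2 and Fzd7 form a subfamily of close relatives, and Fzd4 is known as the receptor of the non-Wnt ligand norrin in vessels. Fzd2 was at 2.60, 2.83 and 2.79 FPKM in WT against 2.91, 2.94 and 2.87 in *Fmr1* KO. Each receptor in this order was above the next in all 6 libraries, with no overlap of their ranges, although the margin was small between Fzd2, whose lowest value was 2.60, and Fzd8, whose highest was 2.53. The summed Frizzled FPKM was 42.9 to 47.3 in WT against 43.7 to 45.9 in *Fmr1* KO, against 55.0 to 58.5 and 58.5 to 59.5 for the summed ligands.

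**Figure D3:**
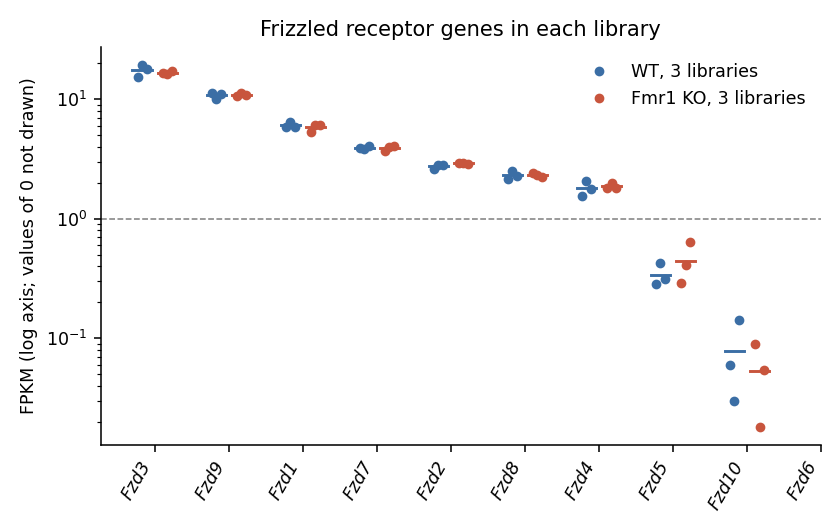
FPKM of the 10 Frizzled genes (log axis, genes in falling order of their mean) in each WT (blue) and *Fmr1* KO (red) library, with the mean of each genotype as a bar; the dashed line marks 1 FPKM. Among the 7 receptors past the minimum, the steps between the means of neighbouring receptors are larger than the gaps between the genotype means. Fzd6, listed at 0 in all libraries, has no points.

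The remaining 3 receptors were below the minimum. Fzd5 was at 0.287 to 0.641 FPKM and Fzd10 at 0.0182 to 0.144 over all libraries. Fzd6, the closest relative of Fzd3, was listed at 0 in all 6 libraries at both of its loci, one on chromosome 15 and one on a scaffold outside the chromosomes. Among 984 protein-coding symbols with a locus on a chromosome and another on such a scaffold, 614 (62.4%) had their chromosome locus at 0 in all libraries, against 19.6% of the 20128 symbols with a single locus on a chromosome. A 0 for Fzd6 is therefore not read as absence of the transcript.

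The receptors showed no genotype difference past the test. Their log2 differences lay between -0.06 for Fzd3 and 0.08 for Fzd2, and the adjusted p was at least 0.728 in limma for all 7. For Fzd2 the 3 *Fmr1* KO libraries were above the 3 WT libraries, with 2.74 ± 0.125 FPKM in WT against 2.91 ± 0.0350 in *Fmr1* KO (SD, n = 3). The 95% interval of its log2 difference was -0.13 to 0.30. The intervals of Fzd9 and Fzd7, -0.12 to 0.17 and -0.20 to 0.18, bound the differences that these libraries leave possible. Leaving out single libraries turned the sign for Fzd3, Fzd9, Fzd1, Fzd7, Fzd8 and Fzd4, but not for Fzd2.

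The coreceptors Lrp5 and Lrp6 are large single-pass proteins that bind Axin once Wnt is engaged, and they differed from each other in direction. Lrp6 (chromosome 6, 134446476 to 134566965 on the minus strand) was at 8.63, 9.72 and 9.97 FPKM in WT against 9.52, 10.6 and 10.7 in *Fmr1* KO. Lrp5 (chromosome 19, 3584828 to 3686564 on the minus strand) was at 6.20, 6.56 and 7.05 FPKM in WT against 5.61, 5.75 and 6.24 in *Fmr1* KO. The genotypes overlapped for both genes, in the case of Lrp5 only through WT replicate 1 and *Fmr1* KO replicate 3. Neither passed the test, with a log2 difference of 0.12 (standard error 0.08, limma adjusted p = 0.513) for Lrp6 and of -0.17 (standard error 0.08, limma adjusted p = 0.367) for Lrp5.

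The ratio of the coreceptors within a library does not depend on how libraries were scaled. Lrp6 over Lrp5 was 1.39, 1.48 and 1.41 in WT against 1.70, 1.84 and 1.72 in *Fmr1* KO, and no KO library was near the WT range. In means it was 1.43 ± 0.0467 and 1.75 ± 0.0800 (SD, n = 3), with an exact permutation p of 0.1, the smallest that 3 against 3 allow. Of 7 such ratios between related members, all chosen with the values known, this was the 1 ratio whose genotypes did not overlap, and its Benjamini-Hochberg adjusted p over the 7 was 0.7 by the exact permutation test. Since no exact p can be below 0.1 here, no adjusted p could reach 0.05, so this test cannot decide whether the ratio differs. The share of Lrp6 in the summed coreceptor FPKM was 58.8% ± 0.785 in WT against 63.6% ± 1.04 in *Fmr1* KO (SD, n = 3), with sums of 14.8 to 17.03 and 15.1 to 16.9 FPKM.

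**Figure D4:**
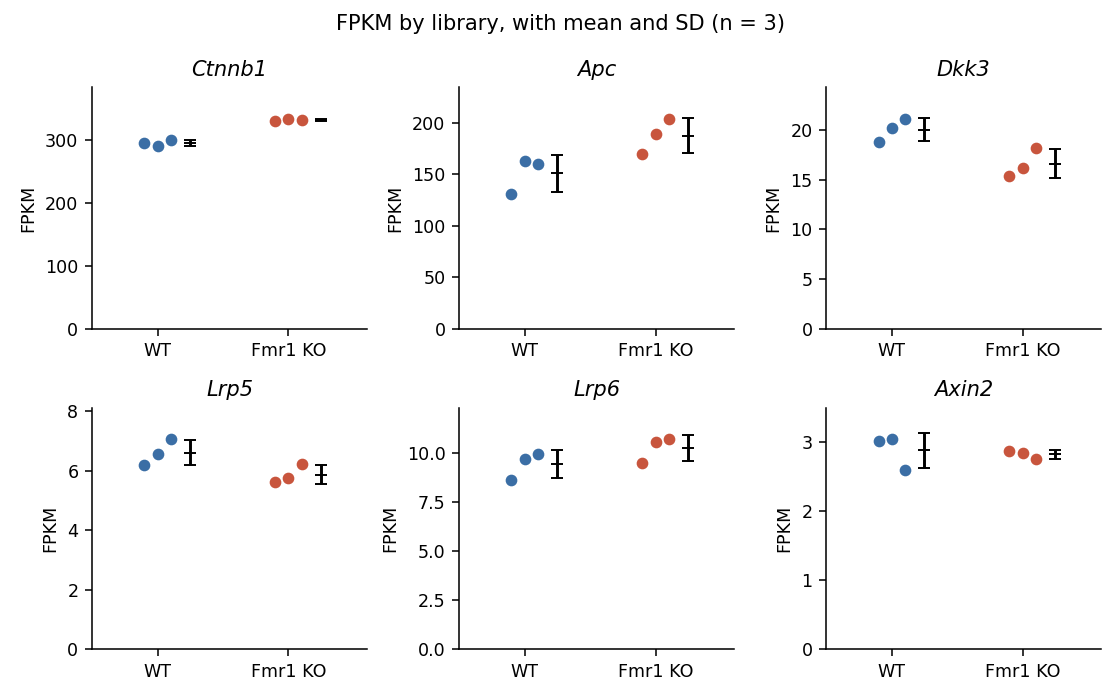
FPKM of Ctnnb1, Apc, Dkk3, Lrp5, Lrp6 and Axin2 in each WT (blue) and *Fmr1* KO (red) library, with the mean and SD of each genotype (n = 3) in black; each axis starts at 0. The genotypes do not overlap for Ctnnb1, Apc and Dkk3, and they overlap for Lrp5, Lrp6 and Axin2.

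Beta-catenin and APC were the most abundant transcripts of the set. Ctnnb1 (chromosome 9, 120929216 to 120960507 on the plus strand), the gene of beta-catenin, was at 296, 292 and 301 FPKM in WT against 331, 335 and 333 in *Fmr1* KO. The replicates of a genotype lay close together, at 296 ± 4.48 FPKM for WT and 333 ± 2.01 for *Fmr1* KO (SD, n = 3), a 1.12-fold higher level in *Fmr1* KO without overlap. The log2 difference was 0.17 (standard error 0.04, 95% interval 0.08 to 0.26), with an unadjusted p of 0.00258 and an adjusted p of 0.130 in limma, so that it did not pass over all tested loci.

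Apc (chromosome 18, 34220924 to 34322552 on the plus strand) encodes the scaffold of the destruction complex, which also binds microtubules and is a tumour suppressor of the gut. Its FPKM was 130, 163 and 160 in WT against 170, 189 and 204 in *Fmr1* KO, again without overlap, though WT replicate 1 stood below the other WT libraries. The log2 difference was 0.31 (standard error 0.10, unadjusted p = 0.00974, limma adjusted p = 0.201), and it was 0.21 with WT replicate 1 left out. The ratio of Ctnnb1 to Apc overlapped between the genotypes, at 1.98 ± 0.253 in WT against 1.78 ± 0.158 in *Fmr1* KO (SD, n = 3). Apc has the longest annotated transcript of the 42 genes, 12811 nucleotides. With the trend of each library with transcript length removed, its log2 difference was 0.25, that of Ctnnb1 stayed at 0.17 and that of Lrp5 was -0.22.

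Axin1 and Axin2 are the Axin scaffolds of the complex, and Axin2 is in addition a widely used readout, since beta-catenin induces it. Axin1 was at 5.44, 6.23 and 5.99 FPKM in WT against 6.06, 6.32 and 6.62 in *Fmr1* KO. Axin2 was at 3.01, 3.04 and 2.59 FPKM in WT against 2.87, 2.85 and 2.75 in *Fmr1* KO, so that all 3 KO libraries lay within the WT range. The log2 difference of Axin2 was -0.03 (standard error 0.10, 95% interval -0.26 to 0.21, limma adjusted p = 0.941), and that of Axin1 was 0.10 (adjusted p = 0.582).

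TCF/LEF factors bind DNA through an HMG box at sites with the core letters CTTTGA. These letters were looked for on both strands in windows from 250 bases before to 50 bases after annotated starts (RefSeq, GRCm38.p6), and a window was matched for 28 of the 42 genes. The letters occurred in 4 of the 37 windows of these genes (10.8%) and in 16.0% of the 32851 windows of all genes; no other motif was searched. The 4 genes with a match were Lef1, Fzd1, Wnt5b and Wnt11. Their matched stretches are printed as a description of these windows, 5′ to 3′ in the direction of transcription and with the 6 letters or their reverse complement in capitals. The Lef1 stretches lie at chr3:131156087-131156147 and chr3:131156147-131156207 (plus strand, first matched base at -180 and -120 from the annotated start of that window), that of Fzd1 at chr5:4758425-4758466 (minus strand, -242), that of Wnt5b at chr6:119449424-119449484 (minus strand, -71) and that of Wnt11 at chr7:98835035-98835095 (plus strand, -50). The Lef1 and Wnt5b windows belong to starts inside the gene, since the Lef1 gene begins at 131110471 and Wnt5b, on the minus strand, at 119544347.
Lef1, first: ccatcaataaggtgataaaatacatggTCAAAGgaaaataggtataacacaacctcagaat
Lef1, second: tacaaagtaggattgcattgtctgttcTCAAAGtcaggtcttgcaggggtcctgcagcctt
Fzd1: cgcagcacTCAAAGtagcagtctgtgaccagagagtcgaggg
Wnt5b: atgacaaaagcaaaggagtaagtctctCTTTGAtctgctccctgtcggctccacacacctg
Wnt11: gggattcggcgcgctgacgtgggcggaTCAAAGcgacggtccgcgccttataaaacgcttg

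Of these 4 genes, Fzd1 alone passed the minimum, with a log2 difference of -0.05 (limma adjusted p = 0.821), while Lef1, Wnt5b and Wnt11 stayed at or below 0.674 FPKM in every library. A match of letters is a description of the window and not a binding site.

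Among the factors themselves, Tcf7l2 and Tcf7l1 passed the minimum. Tcf7l2, the factor with the broadest roles in the gut, the thalamus and oligodendrocytes, was at 3.41, 3.67 and 3.38 FPKM in WT against 3.42, 3.19 and 2.98 in *Fmr1* KO. Tcf7l1, which acts mainly as a repressor, was at 2.22, 2.003 and 2.22 FPKM in WT against 2.03, 1.90 and 2.14 in *Fmr1* KO. The genotypes overlapped for both, with log2 differences of -0.12 (limma adjusted p = 0.600) and -0.08 (adjusted p = 0.800). Tcf7, at 0.343 to 0.634 FPKM, and Lef1, at 0.118 to 0.213 FPKM, were below the minimum in both genotypes. Tcf7l2 and Tcf7l1 held 54.8% ± 1.78 and 33.8% ± 2.40 of the summed TCF/LEF FPKM in WT against 55.1% ± 2.004 and 34.9% ± 2.87 in *Fmr1* KO (SD, n = 3), so that the make-up of the family did not differ beyond the spread.

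Dkk3, a secreted glycoprotein of the Dickkopf family whose action on Wnt signaling is less settled than that of its relatives, had lower values in all *Fmr1* KO libraries. Its FPKM (chromosome 7, 112116017 to 112159057 on the minus strand) was 18.8, 20.2 and 21.1 in WT against 15.4, 16.1 and 18.2 in *Fmr1* KO, without overlap. In means it was 20.03 ± 1.18 and 16.6 ± 1.46 (SD, n = 3). The log2 difference was -0.27 (standard error 0.08, 95% interval -0.45 to -0.10, unadjusted p = 0.00593), and the adjusted p of 0.170 in limma did not pass. It was -0.22 to -0.34 with single libraries left out.

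Sfrp1 and Sfrp2 encode secreted proteins with a Frizzled-like domain that can bind Wnt. Sfrp1 was at 3.60, 3.47 and 3.45 FPKM in WT against 3.15, 4.20 and 3.85 in *Fmr1* KO, and Sfrp2 at 3.09, 2.65 and 3.13 FPKM in WT against 2.81, 3.68 and 3.02 in *Fmr1* KO. For both genes *Fmr1* KO replicate 2 was the highest library and *Fmr1* KO replicate 1 was below the WT mean, so that the genotypes overlapped. Neither passed the test (limma adjusted p = 0.802 for Sfrp1 and 0.788 for Sfrp2). Dkk3 thus made up 75.6% ± 1.62 of the summed FPKM of these 3 genes in WT against 70.6% ± 2.98 in *Fmr1* KO (SD, n = 3).

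The other genes of the pathway were taken from 7 lists of 103 symbols, of which Tiki1 and Tle5 had no row under these symbols and 77 were tested. With an unadjusted p below 0.05, 11 of the 77 were higher in *Fmr1* KO, beside 6.99% of all loci, and 2 were lower, beside 7.77%. In limma, 1 passed an adjusted p of 0.05, namely Ccnd2, beside 0.0909% of all loci. Of the 77, 47 had a log2 difference above 0 and 30 below, with a median of 0.03, where 6816 of the 13195 loci were above 0 and 6379 below, with a median of 0.005. By list, the median was -0.01 for 4 genes of Wnt secretion, 0.03 for 17 genes of the alternative receptors and planar polarity, and 0.08 for 5 genes of the R-spondin axis. It was -0.12 for 6 secreted or membrane inhibitors, 0.04 for 22 genes of the destruction complex and its kinases, 0.05 for 16 nuclear cofactors and 0.07 for 11 target genes used as readouts. Celsr3, Dkk4, Rnf43 and Ppard were listed at 0 in all libraries.

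**Figure D5:**
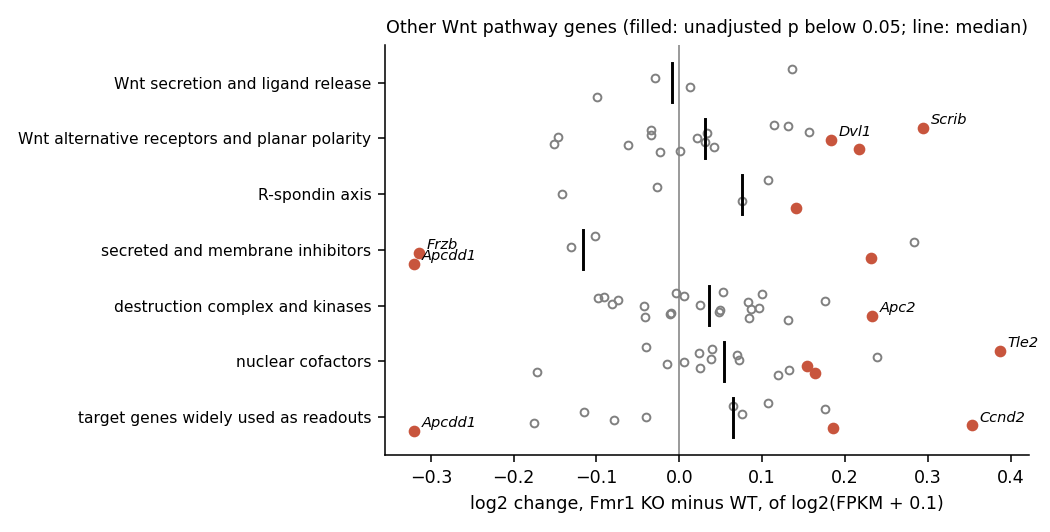
Log2 difference (*Fmr1* KO minus WT, of log2(FPKM + 0.1)) of each tested gene of the 7 further Wnt pathway lists, with the median of a list as a black line and genes at an unadjusted p below 0.05 filled. Ccnd2, Tle2 and Scrib lie farthest to the right, at 0.35, 0.39 and 0.29, and Apcdd1, which is in 2 of the lists, and Frzb farthest to the left among the filled points, at -0.32 and -0.31.

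Ccnd2, a D-type cyclin that drives the G1 phase, was at 69.1, 73.2 and 74.7 FPKM in WT against 88.9, 93.1 and 95.3 in *Fmr1* KO, with a log2 difference of 0.35 (standard error 0.05, limma adjusted p = 0.0359). Its adjusted p was above 0.05 with any 1 library left out, between 0.0537 and 0.177, and was 0.112 without an FPKM minimum and 0.9998 after rescaling to equal sums without Bc1, within a range of 0.0121 to 0.9998 over all alternatives, while the log2 difference stayed between 0.32 and 0.38. Beside it, the 8 proliferation markers all had a log2 difference above 0, as did 6816 of the 13195 loci. Of the 8, 4 were higher at an unadjusted p below 0.05, beside 6.99% of all loci, and 0 passed an adjusted p of 0.05 in limma. The genotypes did not overlap for 3 of them, beside 10.8% of all loci. Their summed level was 51.3 to 56.5 FPKM in WT against 60.9 to 64.3 in *Fmr1* KO, and their part in the value of Ccnd2 was not tested. Of the 17 readouts, 11 were tested. Those other than Ccnd2 ranged from Lgr5, at 1.01 to 1.33 FPKM over all libraries, to Nrcam, at 73.0 to 94.4. Ccnd1, the related cyclin, had a log2 difference of 0.19 (unadjusted p = 0.00773, limma adjusted p = 0.185), and Myc, a proto-oncogene transcription factor, one of -0.11 (adjusted p = 0.593). Apcdd1, a readout that is also on the list of inhibitors, had one of -0.32 (unadjusted p = 0.00407, limma adjusted p = 0.1496). Of the 11, 2 were higher and 1 was lower at an unadjusted p below 0.05 in limma, beside 6.99% and 7.77% of all loci. Among the 6 below the minimum, Rnf43 and Ppard were listed at 0 and Sp5, Notum, Dkk1 and Fosl1 were at or below 0.146 FPKM in every library.

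The largest rise among the other genes was in Tle2, a Groucho-type corepressor of TCF factors, at 8.57, 8.80 and 8.85 FPKM in WT against 10.8, 12.2 and 11.4 in *Fmr1* KO, with a log2 difference of 0.39 (limma adjusted p = 0.0593). Scrib, a polarity scaffold, had a log2 difference of 0.29 (limma adjusted p = 0.0766). The falls at an unadjusted p below 0.05 were in Apcdd1, a membrane inhibitor of Wnt, at 8.20, 7.04 and 7.55 FPKM in WT against 5.70, 6.51 and 5.98 in *Fmr1* KO (log2 difference -0.32, limma adjusted p = 0.1496), and in Frzb, a secreted Frizzled-related protein, with a log2 difference of -0.31 (adjusted p = 0.242). None of these 4 passed the adjusted test. Their genotypes did not overlap, but this was part of the rule by which they were named. Of all loci, 10.8% did not overlap with *Fmr1* KO above and 10.3% with *Fmr1* KO below.

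The machinery on either side of the receptors was well expressed. Porcn, the enzyme that adds the lipid to Wnt, was at 35.7 ± 2.17 FPKM in WT against 34.9 ± 1.88 in *Fmr1* KO, and Wls, which carries Wnt to the surface, at 9.12 ± 1.33 and 9.98 ± 0.651 (SD, n = 3). Of the Dishevelled genes, Dvl1 was at 32.9 ± 0.768 and 37.4 ± 1.43 FPKM and Dvl3 at 23.1 ± 0.799 and 23.4 ± 0.438 (SD, n = 3), while Dvl2 was at 0.642 to 0.930 FPKM over all libraries. Dvl1 had a log2 difference of 0.18 (unadjusted p = 0.00536, limma adjusted p = 0.163) with no overlap of the genotypes. Gsk3b, the kinase that marks beta-catenin for breakdown, was at 43.7 ± 1.72 and 46.3 ± 0.720 FPKM (SD, n = 3), a log2 difference of 0.08 (limma adjusted p = 0.464). Apc2, the relative of Apc found mainly in neurons, was at 26.9, 30.5 and 30.5 FPKM in WT against 30.5, 35.3 and 37.7 in *Fmr1* KO, a log2 difference of 0.23 (limma adjusted p = 0.262), in the same direction as Apc. As for Apc, WT replicate 1 was the lowest WT library. The highest WT value of Apc2, 30.51, lay just under its lowest *Fmr1* KO value, 30.54. Its log2 difference was 0.17 to 0.32 with single libraries left out.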

How the data were processed

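RNA-seq was done on total RNA from 3 WT and 3 *Fmr1* KO libraries, grouped by the sample titles. The authors clipped adapters (Fastx Clipper), trimmed (sickle), mapped to GRCm38 with TopHat2 and built genes with Cufflinks; versions, annotation and library scaling were not given in the sources used here. FPKM per locus and library are as deposited by the authors; the table's columns of group values, fold changes and p- and q-values from Cuffdiff hold the authors' own comparison and were not used.

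FPKM are not counts, so limma 3.58.1 (R 4.3.3) was run on log2(FPKM + 0.1) over one row per locus (mean of at least 1 FPKM in either genotype), with genotype as the only term and a mean-variance trend, two-sided, and was tested on simulated data. Exact permutation tests used scipy 1.17.1. For a symbol with several loci, the one with the highest mean was taken. Gene coordinates and transcript lengths are from GENCODE M21 (GRCm38), with a length for 97.2% of tested loci. The members and lists were chosen with earlier results of these data known. Named genes were all members past the minimum, the 2 highest below it, and of the further pathway genes those past the adjusted test, up to 3 rises and 3 falls with an unadjusted p below 0.05 and separated libraries, and 8 fixed for their role. The alternatives were pseudocounts of 1 and 0.01, no minimum and a minimum of 5, 2 other scalings, no trend, single libraries left out, a replicate block and, added after seeing the data, removal of the transcript length trend.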

Additional observations from a re-analysis of the deposited data

How the results depend on the processing

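Over all loci, the numbers at an adjusted p below 0.05 in limma (12 higher, 23 lower) were 6 and 9 without an FPKM minimum, 20 higher with a minimum of 5, 38 and 50 after rescaling to equal sums without Bc1, 7 and 14 without the trend, and 44 and 57 with the transcript length trend removed, an alternative chosen after seeing the data. With 1 library left out they were 4 to 8 higher and 10 to 14 lower. At an unadjusted p below 0.05, rescaling gave 142 higher and 323 lower, and leaving out 1 library 607 to 1014 higher. Of the 23 Wnt pathway genes tested, rescaling left 0 higher and 0 lower with an unadjusted p below 0.05. The log2 differences were then 0.14 for Ctnnb1, 0.28 for Apc and -0.30 for Dkk3, with standard errors of 0.17, against 0.17, 0.31 and -0.27 with standard errors of 0.04, 0.10 and 0.08. The length alternative gave 3 lower, and leaving out 1 library 1 to 3 lower, the highest without WT replicate 1 (2 without *Fmr1* KO replicate 3). Of the other pathway genes, 0 were higher at an adjusted p below 0.05 without a minimum, after rescaling, without the trend or with any 1 library left out, and 2 with a minimum of 5 or the length trend removed, then with Tle2 at an adjusted p of 0.0428 and 0.0401. At an unadjusted p, rescaling gave 1 higher and 1 lower, the minimum of 5 gave 1 lower, and leaving out 1 library 7 to 11 higher (7 without *Fmr1* KO replicate 2) and 1 to 5 lower.

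A fit with the replicate number as a block gave 29 higher and 36 lower over all loci. Among the Wnt pathway genes it gave 1 higher at an adjusted p below 0.05, Apc (0.0479, within 0.0479 to 0.9998 over its alternatives), and 2 lower at an unadjusted p. The deviations of same-numbered libraries correlated at 0.243, 0.0577 and 0.0801. WT replicate 2 and *Fmr1* KO replicate 2 each correlated better with replicate 3 of the other genotype. WT replicate 1 correlated at -0.122 and -0.131 with *Fmr1* KO replicates 2 and 3, and *Fmr1* KO replicate 1 at -0.119 and -0.152 with WT replicates 2 and 3. The labels do not say whether same-numbered libraries share a culture or batch, and this was not tested.

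Log2 differences near 0 changed sign. Rescaling gave -0.0082 for Fzd9, -0.0231 for Fzd8 and -0.0092 for Dvl3, and the length alternative -0.0260 for Fzd8. With 1 library left out, the range was -0.153 to 0.0137 for Fzd3, -0.0282 to 0.0534 for Fzd9, -0.0859 to 0.0105 for Fzd1, -0.0396 to 0.0315 for Fzd7, -0.0394 to 0.0699 for Fzd8, -0.0388 to 0.158 for Fzd4, -0.0973 to 0.0141 for Axin2, -0.0576 to 0.126 for Wnt5a, -0.0843 to 0.0219 for Wnt4, -0.0090 to 0.193 for Sfrp1, -0.0175 to 0.171 for Sfrp2 and -0.0599 to 0.0198 for Porcn. Of the single-gene values, 180 of 204 with a library left out and 284 of 294 under the other alternatives kept their direction and their side of the threshold. For all these changes the cause was not tested. The depth behind the FPKM is unknown, so the limit it sets for the ligands below 1 FPKM cannot be given.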
